A study of Mus musculus with 12 samples.

Results

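The genes described here are 10 enzymes of glycolysis, Hk2, Gpi1, Pfkp, Aldoa, Tpi1, Gapdh, Pgk1, Pgam1, Pkm and Ldha. They were taken by symbol as 10 of the 24328 rows of a table of RNA-seq read counts from sorted mouse microglia, and all 10 had enough reads to be tested. Microglia are the resident macrophages of the brain. Acute graft-versus-host disease (GvHD) is the attack of donor T cells on the tissues of a transplanted host, and the labels place its peak at the day of collection.

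The table held 12 libraries in 3 groups of 4. Allogeneic mice were wild-type (WT) Balb/c recipients that had been lethally irradiated and given 5000000 bone marrow cells and 300000 T cells from allogeneic donors, with microglia taken on day 14. Syngeneic mice were WT Balb/c recipients with the same irradiation, the same numbers of cells and the same day of collection, but with syngeneic donors. Control mice were untransplanted WT Balb/c mice. The sources used here do not give the strain of the allogeneic donors, the sex and age of the mice, the sort gate or whether donor cells entered the brain. Irradiation and transplantation cannot be told apart in the comparisons with control mice, since only untransplanted mice served there. Each p-value below measures the spread between mice.

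Glycolysis splits glucose into pyruvate in the cytosol and yields ATP and NADH without oxygen. Hexokinase and phosphofructokinase commit glucose to the pathway, aldolase and triose phosphate isomerase split the sugar into trioses, and the enzymes from glyceraldehyde-3-phosphate dehydrogenase to pyruvate kinase return ATP. Lactate dehydrogenase then turns pyruvate into lactate and regenerates NAD+. Macrophages activated by bacterial products or interferon-gamma are known to raise glycolysis, and hypoxia-inducible factor 1, whose oxygen-sensitive subunit is encoded by Hif1a, is a known activator of many of these genes.

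In allogeneic microglia 7 of the 10 enzyme genes were higher than in syngeneic microglia and 0 were lower, with a median log2 fold change of 0.45. Ldha, Gapdh and Pkm had the largest differences, at log2 fold changes of 0.76, 0.70 and 0.65. A gene is counted as higher or lower, and said to have risen or fallen, where the adjusted p of edgeR's quasi-likelihood test over all 12695 tested genes was under 0.05. Of all tested genes 16.5% passed this test in allogeneic against syngeneic microglia, 10.1% as higher and 6.38% as lower, and their median log2 fold change was -0.01. At an unadjusted p under 0.05, 9 enzyme genes were higher and 0 lower, while DESeq2 called 8 higher and 0 lower and limma-voom 7 higher and 0 lower. With library totals in place of TMM scaling, 4 were higher and 0 lower. For 5 of the 10 the allogeneic and syngeneic libraries did not overlap, against 20.7% of all tested genes. In bulk libraries such as these, fewer cells of a type and less RNA per cell cannot be told apart.

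In syngeneic against control microglia 7 of the 10 were higher and 1, Gpi1, was lower, with a median log2 fold change of 0.46. That comparison called 52.1% of all tested genes, 26.4% as higher and 25.6% as lower, with a median over all genes of -0.03. Allogeneic against control microglia had 8 of the 10 higher and 0 lower, with a median of 0.98, against 57.3% of all tested genes called, 28.2% as higher and 29.1% as lower, and a median over all genes of -0.07. Unadjusted, the count at p under 0.05 there was again 8 higher and 0 lower, DESeq2 gave 8 and 0 and limma-voom 9 and 0. Libraries did not overlap for 5 of the 10 genes in syngeneic against control microglia, against 50% of all tested genes, and for 7 of the 10 in allogeneic against control microglia, against 53.8%. The 3 comparisons share libraries, so their values are given side by side and are not independent.

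Values are CPM, a gene's read count relative to the size of its library, scaled by edgeR's TMM factors. Summed over the 10 genes, the level was 3604 to 5140 CPM in allogeneic libraries, 2552 to 2982 CPM in syngeneic libraries and 1683 to 1897 CPM in control libraries, so the 3 groups did not overlap. Library totals were 35559202 to 42641198 counts in allogeneic, 36422729 to 46126118 in syngeneic and 32652208 to 45439607 in control libraries. The TMM factors lay in separate ranges, at 0.844 to 0.893 in allogeneic, 1.002 to 1.021 in syngeneic and 1.096 to 1.159 in control libraries. When libraries were scaled by their totals alone, the median over all genes became, on the log2 scale, -0.22 in allogeneic against syngeneic, -0.20 in syngeneic against control and -0.44 in allogeneic against control microglia. With that scaling 844 genes were higher and 2108 lower in allogeneic against syngeneic microglia, where TMM gave 1288 and 810. The split was 2723 and 3968 in syngeneic against control, where TMM gave 3357 and 3253, and 2453 and 5259 in allogeneic against control, where TMM gave 3576 and 3697. Relative to the median of all genes, the fold changes of the 10 enzymes moved by at most 0.0079 on the log2 scale between these scalings. Size factors shift all genes by nearly the same amount, so a small move relative to that median is built in and does not test the calls. The fold changes below are the fitted ones and are not set relative to that median, so those quoted with library totals alone hold the shift of all genes as well.

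**Figure D1:**
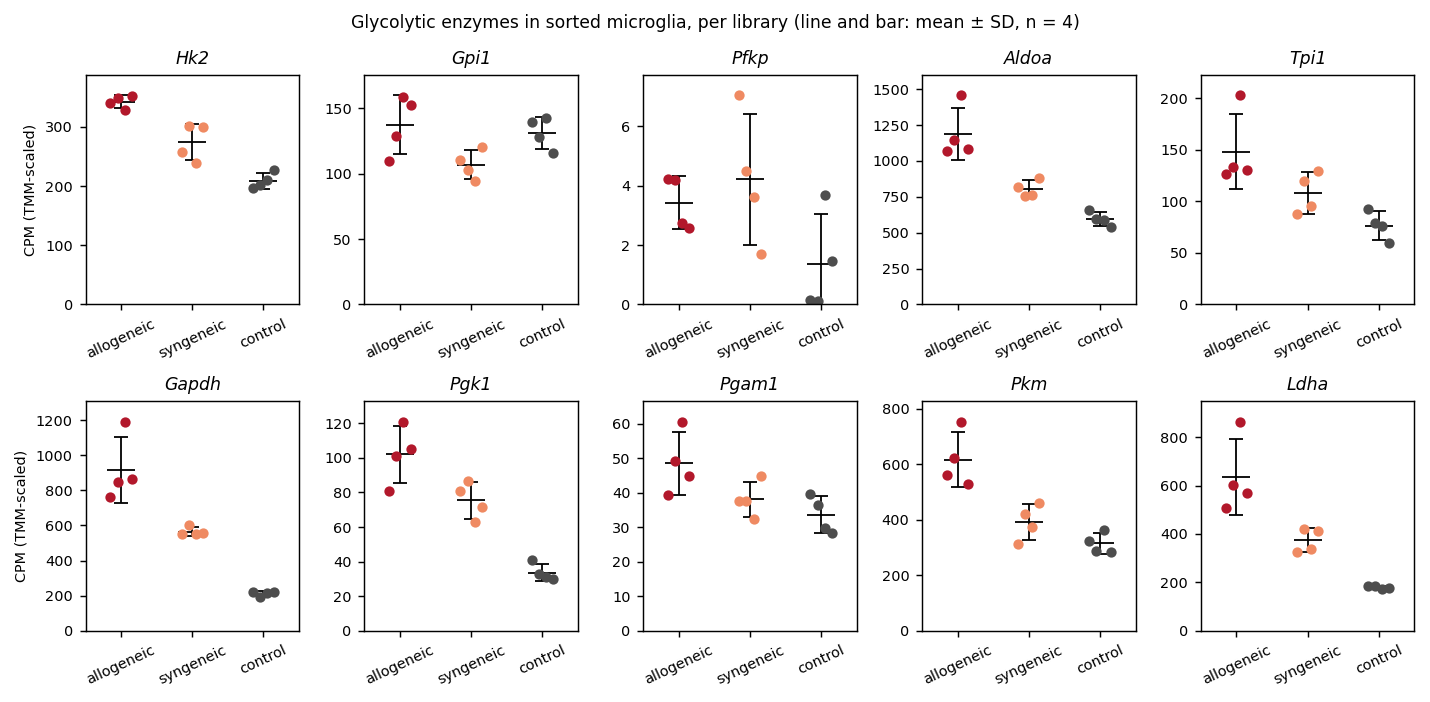
TMM-scaled CPM (y axis, linear from 0) of the 10 enzyme genes in allogeneic, syngeneic and control libraries (x axis); each point is 1 library in replicate order from left to right, the line is the mean and the bar the SD (n = 4). Gapdh, Ldha, Aldoa and Hk2 step down from allogeneic through syngeneic to control without overlap, and the lower end of the Pfkp control bar is cut off at 0.

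Gapdh, Ldha and Pgk1 are shown with their promoters because they had the highest log2 fold changes of the enzymes called in allogeneic against control microglia. The sequences are the 250 bases before the RefSeq start on the gene's own strand, 5′ to 3′, in GRCm38.p6, a later build than the mm9 used for the deposited counts. Capitals mark ACGTG and GCGTG on either strand, the core letters that hypoxia-inducible factors are known to bind, so that CACGT and CACGC are the same words read from the other strand. The Gapdh window is chr6:125165774-125166023 (minus strand), the Pgk1 window chrX:106186850-106187099 (plus strand) and the Ldha window chr7:46845554-46845803 (plus strand).
Gapdh: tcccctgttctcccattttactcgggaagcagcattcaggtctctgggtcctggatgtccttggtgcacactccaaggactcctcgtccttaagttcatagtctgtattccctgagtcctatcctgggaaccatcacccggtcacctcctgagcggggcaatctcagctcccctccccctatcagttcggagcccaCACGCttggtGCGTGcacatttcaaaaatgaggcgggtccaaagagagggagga
Pgk1: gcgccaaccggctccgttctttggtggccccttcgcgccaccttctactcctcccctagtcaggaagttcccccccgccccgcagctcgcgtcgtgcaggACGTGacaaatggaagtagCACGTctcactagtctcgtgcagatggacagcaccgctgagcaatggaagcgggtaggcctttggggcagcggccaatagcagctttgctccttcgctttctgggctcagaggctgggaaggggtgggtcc
Ldha: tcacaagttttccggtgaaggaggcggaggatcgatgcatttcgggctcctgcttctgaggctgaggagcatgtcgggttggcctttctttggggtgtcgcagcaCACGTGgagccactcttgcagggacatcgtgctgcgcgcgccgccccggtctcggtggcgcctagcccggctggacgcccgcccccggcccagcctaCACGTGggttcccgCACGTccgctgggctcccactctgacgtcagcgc

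The Gapdh and Pgk1 windows each hold 2 of these words, and the Ldha window holds 5, since each of its CACGTG palindromes counts on both strands. In windows that also take in the 50 bases after the start, 10 of the 14 RefSeq promoters of the 10 genes, from 8 genes, hold ACGTG or GCGTG, as do 43.8% of all 32851 mouse promoters. The genes without either word there are Gpi1 and Tpi1. ACGTG, with or without GCGTG, is in 8 of the 14, from 7 genes, and in 19.6% of all. GCGTG, with or without ACGTG, is in 5 of the 14, from 4 genes, and in 32.4% of all. The palindrome CACGTG is in 1 of the 14, that of Ldha, and in 7.15% of all. Windows of a gene can overlap, so a match can be counted more than once. Those of Aldoa at chr7:126799205-126799504 and chr7:126799129-126799428 overlap and each hold 1 ACGTG. The STAT word TTCNNNGAA is in 0 of the 14 and in 8.3% of all promoters, and the interferon-stimulated response element, taken as a pair of GAAA words parted by 2 bases, in 0 of the 14 and in 3.44% of all. These are matches of letters on both strands in short windows and say nothing of binding.

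Hk2, Gpi1 and Pfkp act in the first steps of the pathway. Hk2, the inducible hexokinase that phosphorylates glucose, had 340, 350, 328 and 352 CPM in allogeneic libraries, 258, 301, 240 and 299 CPM in syngeneic libraries and 196, 203, 211 and 227 CPM in control libraries. All allogeneic libraries were above all syngeneic ones, and those were above all control ones. The log2 fold change was 0.32 ± 0.08 (SE, adjusted p = 0.00867) in allogeneic against syngeneic, 0.39 ± 0.08 (adjusted p = 0.000432) in syngeneic against control, and 0.71 ± 0.08 (adjusted p = 4.58e-07) in allogeneic against control microglia. With library totals alone the Hk2 value in allogeneic against syngeneic microglia was 0.12 (adjusted p = 0.363).

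Gpi1, the isomerase that turns glucose-6-phosphate into fructose-6-phosphate, had 110, 129, 159 and 153 CPM in allogeneic libraries, 110, 103, 94.1 and 120 CPM in syngeneic libraries and 140, 128, 142 and 116 CPM in control libraries. It was the member whose lowest level was in the syngeneic group. Log2 fold changes were 0.36 ± 0.12 (SE, adjusted p = 0.038) in allogeneic against syngeneic, -0.30 ± 0.12 (adjusted p = 0.0377) in syngeneic against control and 0.06 ± 0.12 (adjusted p = 0.663) in allogeneic against control microglia. Its groups overlapped in each comparison. The allogeneic against syngeneic call was lost without allogeneic 3 or 4, syngeneic 1, 2 or 3, or control 2 (adjusted p 0.0562 to 0.134), and the syngeneic against control call without control 1, 2 or 3 or syngeneic 1, 2 or 3 (adjusted p 0.0539 to 0.118) and with RLE size factors (-0.28, adjusted p = 0.0538). With an offset for GC content and for length, the syngeneic against control value was 0.20 (adjusted p = 0.153) and the allogeneic against control value 0.57 (adjusted p = 0.000266). With library totals alone the allogeneic against control value was -0.31 (adjusted p = 0.0218) and the allogeneic against syngeneic value 0.16 (adjusted p = 0.339). Relative to the median of all genes the allogeneic against control value was 0.13 with either scaling.

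Pfkp, the platelet-type phosphofructokinase, was the scarcest of the 10, with 4.22, 4.19, 2.75 and 2.56 CPM in allogeneic libraries, 7.04, 4.50, 3.61 and 1.69 CPM in syngeneic libraries and 0.149, 0.106, 3.70 and 1.45 CPM in control libraries. Control 3 lay within the range of the transplanted groups, while control 1 and 2 were near 0. Its log2 fold change was -0.30 ± 0.78 (SE, adjusted p = 0.861) in allogeneic against syngeneic, 1.63 ± 0.80 (adjusted p = 0.0979) in syngeneic against control and 1.33 ± 0.80 (adjusted p = 0.164) in allogeneic against control microglia, so that no difference in Pfkp passed the test. Without control 3 the last 2 values were 2.89 (adjusted p = 0.00788) and 2.58 (adjusted p = 0.0127), and limma-voom gave 2.63 (adjusted p = 0.0155) and 2.43 (adjusted p = 0.0257).

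Aldoa and Tpi1 form and interconvert the triose phosphates. Aldoa, the aldolase that cleaves fructose-1,6-bisphosphate, had 1070, 1144, 1457 and 1086 CPM in allogeneic libraries, 818, 754, 762 and 885 CPM in syngeneic libraries and 657, 596, 591 and 542 CPM in control libraries. The 3 groups did not overlap. Expressed as log2 fold changes, the differences were 0.56 ± 0.09 (SE, adjusted p = 0.000171) in allogeneic against syngeneic, 0.43 ± 0.09 (adjusted p = 0.000597) in syngeneic against control and 0.996 ± 0.09 (adjusted p = 3.13e-08) in allogeneic against control microglia.

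Tpi1, which interconverts the triose phosphates, had 126, 134, 203 and 131 CPM in allogeneic libraries, 87.4, 120, 95.2 and 130 CPM in syngeneic libraries and 92.5, 79.0, 75.8 and 59.2 CPM in control libraries. Allogeneic 3 stood above every other library, and the other allogeneic libraries overlapped the syngeneic ones. The allogeneic against syngeneic difference did not pass the test, at a log2 fold change of 0.46 ± 0.16 (SE, adjusted p = 0.0639), and passed without syngeneic 4 (0.54, adjusted p = 0.0482) and with DESeq2 (0.47, adjusted p = 0.025). Against control microglia Tpi1 rose by 0.95 ± 0.16 log2 units in allogeneic microglia (adjusted p = 6.99e-05) and by 0.50 ± 0.16 log2 units in syngeneic microglia (adjusted p = 0.0161). The syngeneic call was lost without control 4, syngeneic 2 or syngeneic 4 (adjusted p 0.0503 to 0.0623) and with library totals alone (0.33, adjusted p = 0.0815).

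The later steps yield NADH and ATP. Gapdh, which oxidises glyceraldehyde-3-phosphate and makes NADH, had 763, 850, 1191 and 866 CPM in allogeneic libraries, 548, 601, 550 and 554 CPM in syngeneic libraries and 220, 193, 216 and 218 CPM in control libraries. The lowest allogeneic library was above the highest syngeneic one, and the lowest syngeneic library was above the highest control one. The log2 fold change was 0.70 ± 0.10 (SE, adjusted p = 5.68e-05) in allogeneic against syngeneic, 1.41 ± 0.10 (adjusted p = 2.61e-09) in syngeneic against control and 2.12 ± 0.11 (adjusted p = 6.09e-12) in allogeneic against control microglia. Gapdh is commonly used as a reference gene in expression assays, and among the 10 members it had the highest fold change in allogeneic against control microglia.

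Pgk1, the phosphoglycerate kinase that makes the first ATP, had 80.8, 101, 121 and 105 CPM in allogeneic libraries, 81.0, 86.7, 62.7 and 71.4 CPM in syngeneic libraries and 40.7, 32.7, 31.33 and 29.97 CPM in control libraries. Both transplanted groups were above the control group, and allogeneic 1 lay within the syngeneic range. Log2 fold changes of Pgk1 were 0.43 ± 0.14 (SE, adjusted p = 0.0347) in allogeneic against syngeneic, 1.16 ± 0.14 (adjusted p = 1.28e-06) in syngeneic against control and 1.598 ± 0.14 (adjusted p = 1.61e-08) in allogeneic against control microglia. The allogeneic against syngeneic call was lost without allogeneic 2, 3 or 4 or syngeneic 3 or 4 (adjusted p 0.0637 to 0.13), and the value was 0.23 (adjusted p = 0.219) with library totals alone and 0.25 (adjusted p = 0.211) with the offset for GC content and length.

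Pgam1, the phosphoglycerate mutase, had 39.4, 49.1, 60.5 and 44.7 CPM in allogeneic libraries, 37.7, 37.5, 32.5 and 44.8 CPM in syngeneic libraries and 39.5, 36.5, 29.8 and 28.4 CPM in control libraries. The groups overlapped in each comparison. It rose in allogeneic against control microglia alone, by 0.53 ± 0.16 on the log2 scale (SE, adjusted p = 0.00713). The values of the comparisons that did not pass were 0.35 ± 0.16 (adjusted p = 0.147) in allogeneic against syngeneic and 0.18 ± 0.16 (adjusted p = 0.346) in syngeneic against control microglia. With library totals alone the call against control was lost (0.16, adjusted p = 0.385).

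Pkm, the pyruvate kinase that makes the second ATP, had 561, 625, 754 and 530 CPM in allogeneic libraries, 313, 421, 374 and 462 CPM in syngeneic libraries and 325, 288, 363 and 283 CPM in control libraries. The allogeneic libraries were above all others, while the syngeneic and control libraries overlapped. Pkm had log2 fold changes of 0.65 ± 0.12 (SE, adjusted p = 0.000668) in allogeneic against syngeneic, 0.32 ± 0.12 (adjusted p = 0.0334) in syngeneic against control and 0.97 ± 0.12 (adjusted p = 1.63e-06) in allogeneic against control microglia. The syngeneic against control call was lost without control 1, 2 or 4 or syngeneic 2 or 4 (adjusted p 0.0509 to 0.122) and with library totals alone (0.15, adjusted p = 0.278), while the offset for GC content and length raised it to 0.995 (adjusted p = 1.19e-06) and the allogeneic against control value to 1.71 (adjusted p = 8.31e-10). Counts per gene do not separate the M1 and M2 splice forms of Pkm.

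Ldha, the subunit that favours making lactate from pyruvate, had 509, 601, 864 and 567 CPM in allogeneic libraries, 327, 419, 338 and 413 CPM in syngeneic libraries and 186, 184, 172 and 178 CPM in control libraries. The 3 groups did not overlap, and allogeneic 3 was the highest library. For Ldha the log2 fold change was 0.76 ± 0.13 (SE, adjusted p = 0.000223) in allogeneic against syngeneic, 1.06 ± 0.13 (adjusted p = 1.49e-06) in syngeneic against control and 1.82 ± 0.13 (adjusted p = 9.21e-10) in allogeneic against control microglia.

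**Figure D2:**
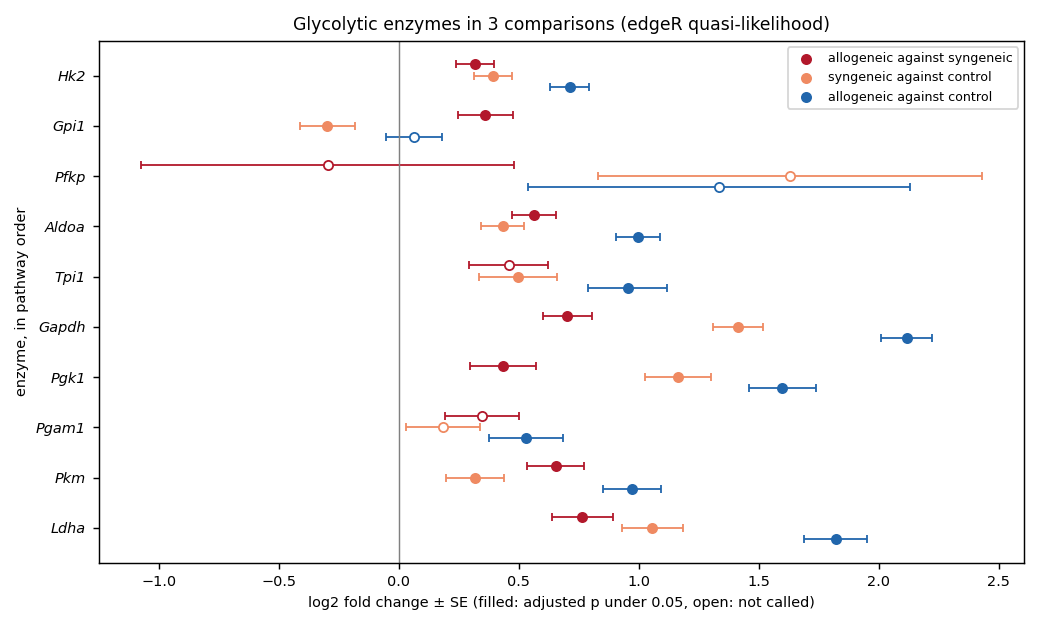
Log2 fold change with its SE (x axis) of each enzyme gene, in pathway order (y axis), for the comparison of allogeneic with syngeneic (red), syngeneic with control (orange) and allogeneic with control microglia (blue); filled points have an adjusted p under 0.05 and open ones do not. Gapdh, Ldha and Pgk1 lie farthest to the right in allogeneic against control microglia, at 2.12, 1.82 and 1.598, Gpi1 lies on both sides of 0, and Pfkp has the widest bars.

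How the members varied among the libraries of a group was uneven. Allogeneic 3 was the highest library of its group in 8 of the 10 genes, while in Hk2 it was the lowest, and allogeneic 1 was the lowest of its group in 7. Without allogeneic 3 the log2 fold changes in allogeneic against syngeneic microglia were 0.58 for Ldha (adjusted p = 0.000239), 0.55 for Gapdh (adjusted p = 2.63e-05), 0.54 for Pkm (adjusted p = 0.00337) and 0.45 for Aldoa (adjusted p = 0.000354), and 5 of the 10 genes were higher. In the control group, control 1 was the highest library in 6 genes and control 4 the lowest in 6.

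**Figure D3:**
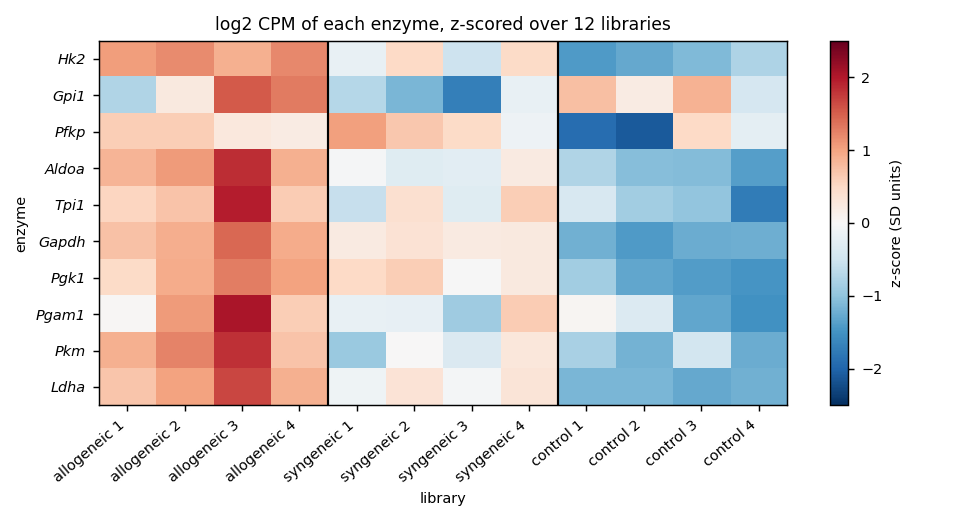
Log2 CPM of each enzyme gene (rows) in each library (columns, allogeneic then syngeneic then control), z-scored over the 12 libraries; red is above and blue below the gene's own mean, in SD units. Most rows run from red in allogeneic libraries to blue in control libraries, with allogeneic 3 the deepest red in most, and Gpi1 and Pfkp break the order.

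Levels can be set against each other between genes only per length, as CPM per kilobase of the longest coding transcript. On that scale Aldoa was the highest in allogeneic libraries at 768 ± 117, followed by Gapdh at 646 ± 132, Ldha at 350 ± 86.5 and Pkm at 254 ± 40.8 (SD, n = 4). The ranges over allogeneic libraries overlapped between Aldoa and Gapdh and between Ldha and Pkm, and did not overlap between Gapdh and Ldha or between Pkm and the next gene, Tpi1, at 92.4 ± 22.7. Hk2 at 62.1 ± 1.97, Pgk1 at 55.9 ± 9.04 and Gpi1 at 47.6 ± 7.81 came next, with Pgk1 overlapping both, followed by Pgam1 at 27.3 ± 5.07 and Pfkp at 0.828 ± 0.217. Syngeneic libraries had the same order, with Aldoa at 519 ± 39.1, Gapdh at 397 ± 17.8, Ldha at 206 ± 26.7 and Pkm at 161 ± 26.3, and there Gapdh lay wholly below Aldoa. Control libraries had Aldoa at 385 ± 30.4, Gapdh at 149 ± 8.97, Pkm at 129 ± 15.4 and Ldha at 99.2 ± 3.61 CPM per kilobase, and Pgk1 came after Gpi1, Hk2 and Pgam1 there. The lengths are those of one transcript per gene, so the order is approximate.

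Several of the steps can be served by another gene; the levels of these isoenzymes are set beside those of the members here. Per length, Hk2 made up 76.0 ± 5.30% of the summed hexokinase level (Hk1, Hk2 and Hk3) in allogeneic libraries, 76.8 ± 4.59% in syngeneic libraries and 52.5 ± 2.02% in control libraries (SD, n = 4). Hk1, the housekeeping hexokinase, made up 2.71 ± 0.429%, 4.26 ± 1.096% and 11.8 ± 1.75% in the same groups, and Hk3, a hexokinase of myeloid cells, 21.3 ± 5.39%, 18.9 ± 3.70% and 35.7 ± 1.30%. The summed hexokinase level was 82.0 ± 5.35 CPM per kilobase in allogeneic, 64.9 ± 6.29 in syngeneic and 72.3 ± 3.23 in control libraries. Hk1 fell by 1.93 ± 0.20 log2 units in allogeneic (SE, adjusted p = 1.83e-07) and fell by 1.63 ± 0.20 log2 units in syngeneic against control microglia (adjusted p = 1.85e-06), or by less with the offset for GC content and length (-1.12 and -0.94). Hk3 fell by 0.55 ± 0.19 log2 units in allogeneic (adjusted p = 0.0202) and fell by 1.07 ± 0.19 log2 units in syngeneic against control microglia (adjusted p = 0.000139). With the offset, Hk3 was at 0.28 (adjusted p = 0.243) and -0.34 (adjusted p = 0.161), and the allogeneic call was also lost without allogeneic 1 (adjusted p = 0.0648) or allogeneic 2 (adjusted p = 0.0511).

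Lactate dehydrogenase is a tetramer of Ldha and Ldhb subunits, and Ldhb is known to favour the return of lactate to pyruvate. Ldha made up 28.1 ± 4.83% of their summed level per length in allogeneic, 18.9 ± 5.99% in syngeneic and 8.49 ± 0.855% in control libraries (SD, n = 4). Syngeneic 4, at 27.8%, lay within the allogeneic range of 23.2 to 34.7%. Ldhb itself had 1209, 1185, 1166 and 1062 CPM in allogeneic libraries, 1290, 1447, 1346 and 771 CPM in syngeneic libraries and 1545, 1388, 1479 and 1207 CPM in control libraries. No Ldhb difference passed the test, and syngeneic 4 was below all other libraries. Its log2 fold change was -0.28 (adjusted p = 0.113) in allogeneic against control microglia, and -0.07 (adjusted p = 0.819) in allogeneic against syngeneic. Without syngeneic 4 these were -0.29 (adjusted p = 0.00268) and -0.25 (adjusted p = 0.0427). The allogeneic against control value also passed with library totals alone (-0.65, adjusted p = 0.000699), with the offset for GC content and length (-0.55, adjusted p = 0.00378) and in a fit of these groups alone (-0.27, adjusted p = 0.00822). It passed as well with a block for replicate numbers (-0.28, adjusted p = 0.0279), and the syngeneic against control value passed with library totals alone (-0.38, adjusted p = 0.0289). The summed lactate dehydrogenase level was 1236 ± 101 CPM per kilobase in allogeneic, 1137 ± 224 in syngeneic and 1176 ± 113 in control libraries (SD, n = 4).

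Of phosphofructokinase, the liver-type gene Pfkl made up 88.9 ± 3.95% of the summed level per length in allogeneic, 86.9 ± 1.235% in syngeneic and 80.2 ± 2.39% in control libraries (SD, n = 4). Pfkp made up 3.13 ± 1.17%, 4.86 ± 3.09% and 0.864 ± 1.04% in the same groups. Pfkm, the muscle-type gene, fell by 1.78 ± 0.35 log2 units in allogeneic (SE, adjusted p = 0.000279) and fell by 1.75 ± 0.35 log2 units in syngeneic against control microglia (adjusted p = 0.000378), and the allogeneic value was -1.17 with the offset (adjusted p = 0.00722). Aldoc, the brain aldolase, averaged 11.5 ± 2.87 CPM in allogeneic, 10.3 ± 1.95 in syngeneic and 0.927 ± 0.818 in control libraries (SD, n = 4), and remained a small part of aldolase beside Aldoa. It rose by 3.63 ± 0.59 log2 units in allogeneic (SE, adjusted p = 3.65e-05) and by 3.48 ± 0.58 log2 units in syngeneic against control microglia (adjusted p = 6.54e-05). Without control 2 these values were 4.27 and 4.14. Aldoc also marks astrocytes, and the summed level of the 7 astrocyte markers, Aldoc among them, was 25.6 to 43.0 CPM in allogeneic, 25.7 to 41.7 in syngeneic and 1.47 to 7.91 in control libraries; their part in the Aldoc result was not tested.

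The log2 ratio of a member's counts to those of its isoenzyme was compared over libraries for 5 pairs in 3 comparisons. The ratio of Hk2 to Hk1 was higher by 2.65 in allogeneic and by 2.04 in syngeneic than in control microglia, that of Hk2 to Hk3 by 1.32 and 1.49, and that of Ldha to Ldhb by 2.07 and 1.29. The ratio of Aldoa to Aldoc differed by -3.55 and -3.98. In these 8 cases the groups did not overlap, and each had p = 0.0286, the smallest that a two-sided exact permutation test of 4 against 4 can give. After adjustment over the 15 tests the smallest exact permutation value was 0.0536, so 0 of 15 passed and 8 were under 0.05 unadjusted. These 8 share 1 p-value, so the adjustment passes or fails them together, by how many tests reach that smallest value. Between allogeneic and syngeneic libraries the ratios overlapped, with differences of 0.61 for Hk2 to Hk1 (adjusted exact permutation p = 0.0779), 0.77 for Ldha to Ldhb (adjusted p = 0.143), 0.42 for Aldoa to Aldoc (adjusted p = 0.264), -0.17 for Hk2 to Hk3 (adjusted p = 0.571) and -0.44 for Pfkp to Pfkl (adjusted p = 0.52). The Ldha to Ldhb overlap came from syngeneic 4, at -0.90. The other syngeneic libraries lay at -1.99 to -1.79 and the allogeneic ones at -1.25 to -0.43. The Hk2 to Hk1 overlap came from allogeneic 4, at 4.85, and syngeneic 2, at 5.25. Control 4 had 0.0259 CPM of Aldoc, the lowest of all libraries, and the highest ratio of Aldoa to Aldoc, at 13.77.

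**Figure D4:**
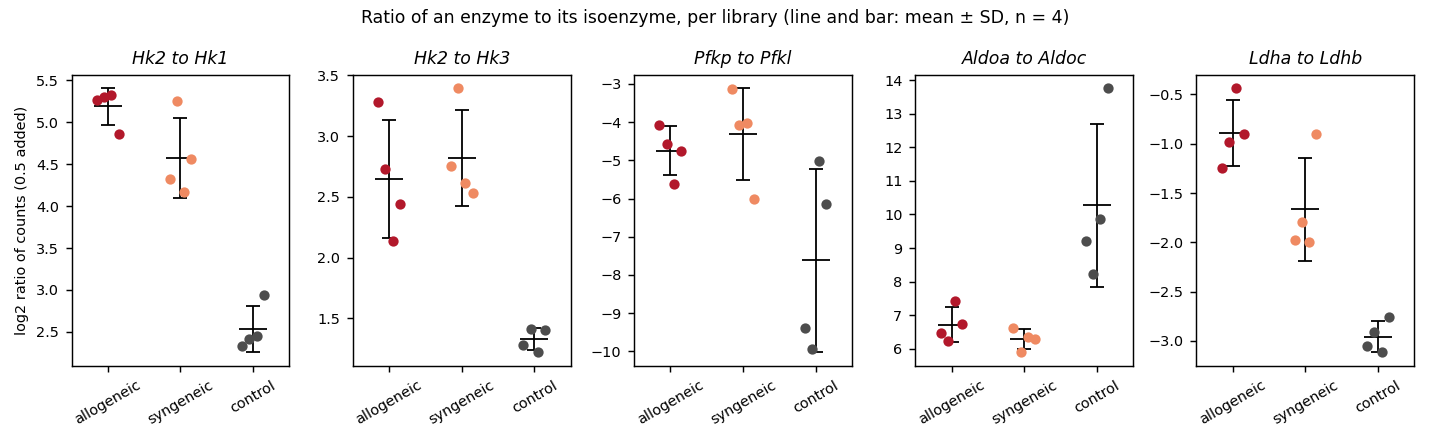
Log2 ratio of counts, with 0.5 added to each (y axis), of an enzyme gene to its isoenzyme in allogeneic, syngeneic and control libraries (x axis); points are libraries in replicate order, the line is the mean and the bar the SD (n = 4). Ratios of Hk2 to Hk1, Hk2 to Hk3 and Ldha to Ldhb are higher in both transplanted groups than in control libraries, that of Aldoa to Aldoc is lower, and that of Pfkp to Pfkl overlaps.

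Of 21 glycolysis genes outside the 10 members, 16 were tested. In allogeneic against syngeneic microglia 1, the phosphoglucomutase gene Pgm2, was higher and 1 lower, with a median log2 fold change of -0.05. The Pgm2 call (0.75) was lost with the offset for GC content and length, with library totals alone, and without allogeneic 2, 3 or 4 or syngeneic 1 or 3 (adjusted p 0.0548 to 0.0849). Counts of 2 higher came with DESeq2 and without allogeneic 1 or syngeneic 4, and counts of 2 lower without allogeneic 2 or syngeneic 4. In syngeneic against control microglia 2 were higher and 7 lower, with a median of -0.65, and in allogeneic against control microglia 2 were higher and 5 lower, with a median of -0.74. The counts of this list and of those below stand beside the shares of all tested genes called. Those shares were 16.5% in allogeneic against syngeneic, 52.1% in syngeneic against control and 57.3% in allogeneic against control microglia. In syngeneic against control microglia 4 were lower with the offset, without control 3 or without syngeneic 1, and limma-voom called 8 lower in allogeneic against control microglia. Eno3, the muscle enolase, was lower in each comparison, averaging 14.3 ± 4.53 CPM in allogeneic, 34.0 ± 7.37 in syngeneic and 78.9 ± 7.42 in control libraries (SD, n = 4). Its log2 fold change was -1.25 ± 0.20 (SE, adjusted p = 0.000149) in allogeneic against syngeneic and -1.21 ± 0.20 (adjusted p = 4.47e-05) in syngeneic against control microglia. Pgm1, a phosphoglucomutase, rose by 0.96 ± 0.19 log2 units in allogeneic (adjusted p = 0.000252) and by 0.95 ± 0.19 log2 units in syngeneic against control microglia (adjusted p = 0.000309).

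The main enolase gene could not be read from these counts. Eno1 held 114 counts over the allogeneic libraries, 121 over the syngeneic and 109 over the control libraries, while the near-identical Eno1b averaged 64.6 ± 14.8 CPM in allogeneic, 48.6 ± 7.18 in syngeneic and 44.0 ± 1.85 in control libraries (SD, n = 4). Eno1b was looked up after the Eno1 values were seen. Its log2 fold change was 0.41 ± 0.15 (SE, adjusted p = 0.0687) in allogeneic against syngeneic and 0.55 ± 0.15 (adjusted p = 0.00387) in allogeneic against control microglia. Gapdh and several other members have processed pseudogenes, and the sources used here do not say how reads shared with such copies were counted, so their levels are uncertain to that extent.

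Among 6 tested genes that set the flow through phosphofructokinase, Tigar and Pfkfb4 were higher in allogeneic than in syngeneic microglia and 0 were lower, with a median log2 fold change of 0.31. The counts at an unadjusted p under 0.05 were again 2 and 0, DESeq2 gave 2 and 0 and limma-voom 3 and 0. Tigar, a p53 target whose product lowers fructose-2,6-bisphosphate, averaged 12.6 ± 2.48 CPM in allogeneic, 6.04 ± 1.56 in syngeneic and 2.59 ± 1.17 in control libraries (SD, n = 4), and the 3 groups did not overlap. It rose by 1.06 ± 0.33 log2 units in allogeneic against syngeneic (SE, adjusted p = 0.0316) and by 1.22 ± 0.33 log2 units in syngeneic against control microglia (adjusted p = 0.00466). The first call was lost without allogeneic 2 or 3 or syngeneic 2, 3 or 4 (adjusted p 0.0749 to 0.0989) and with library totals alone (adjusted p = 0.0654), under which 0 of the regulators were higher and 1 lower. Pfkfb4, which makes and breaks the same activator, averaged 40.6 ± 5.65 CPM in allogeneic, 26.9 ± 5.52 in syngeneic and 49.6 ± 3.505 in control libraries (SD, n = 4), with log2 fold changes of 0.60 ± 0.15 (SE, adjusted p = 0.0088) in allogeneic against syngeneic and -0.89 ± 0.15 (adjusted p = 7.25e-05) in syngeneic against control microglia. With library totals alone the first was 0.39 (adjusted p = 0.0762), and with the offset for GC content and length the second was -0.27 (adjusted p = 0.116).

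In syngeneic against control microglia 2 of these regulators were higher and 3 lower, and 1 stayed lower with the offset. Pfkfb3, the inducible form that raises fructose-2,6-bisphosphate, averaged 67.6 ± 8.80 CPM in allogeneic, 81.4 ± 17.0 in syngeneic and 114 ± 10.3 in control libraries (SD, n = 4). It fell by 0.75 ± 0.13 log2 units in allogeneic (SE, adjusted p = 0.00011) and fell by 0.48 ± 0.13 log2 units in syngeneic against control microglia (adjusted p = 0.00568), and with the offset the syngeneic value was -0.26 (adjusted p = 0.11). Fbp1, the phosphatase of gluconeogenesis that reverses the phosphofructokinase step, had 4.41 to 7.29 CPM in allogeneic, 1.45 to 3.75 in syngeneic and 0 to 0.388 in control libraries. It rose against control microglia, with fitted log2 fold changes of 5.92 ± 0.96 in allogeneic (adjusted p = 3.61e-05) and 4.66 ± 0.92 in syngeneic microglia (adjusted p = 0.000329), and 9.17 and 7.91 without control 4, the control library with most of its reads.

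Of 10 tested transporters of glucose and lactate, 1 was higher and 2 lower in allogeneic against syngeneic microglia, with a median log2 fold change of 0.02. Without allogeneic 1 the count of higher genes was 2, and limma-voom called 1 lower. Slc2a6, a hexose transporter of lysosomes in macrophages, had 56.9, 71.8, 89.8 and 53.2 CPM in allogeneic libraries, 5.37, 8.16, 9.06 and 12.4 CPM in syngeneic libraries and 2.16, 1.195, 5.27 and 4.84 CPM in control libraries. The allogeneic libraries stood far above all others. Its log2 fold change was 2.96 ± 0.37 (SE, adjusted p = 2.44e-05) in allogeneic against syngeneic and 1.37 ± 0.37 (adjusted p = 0.00539) in syngeneic against control microglia, or 1.98 with the offset for GC content and length. Slc2a5, a fructose transporter and a known marker of microglia, averaged 19.4 ± 1.38 CPM in allogeneic, 38.2 ± 9.20 in syngeneic and 97.6 ± 15.7 in control libraries (SD, n = 4). It fell by 0.97 ± 0.16 log2 units in allogeneic against syngeneic (SE, adjusted p = 0.000177) and fell by 1.35 ± 0.16 log2 units in syngeneic against control microglia (adjusted p = 8.94e-07). Slc2a1, the ubiquitous glucose carrier GLUT1, averaged 50.8 ± 13.9 CPM in allogeneic, 39.8 ± 7.49 in syngeneic and 74.4 ± 10.1 in control libraries (SD, n = 4). It fell by 0.90 ± 0.19 log2 units in syngeneic against control microglia (SE, adjusted p = 0.000478), a call lost with the offset (-0.34, adjusted p = 0.126). In allogeneic against control microglia Slc2a1 fell by 0.55 ± 0.18 log2 units (adjusted p = 0.0162), a call also lost with the offset (0.05, adjusted p = 0.819). Slc16a3, the lactate exporter MCT4, fell by 1.62 ± 0.32 log2 units in syngeneic against control microglia (adjusted p = 0.000319), and fell by 0.94 with the offset (adjusted p = 0.0198). Its fall in allogeneic against control microglia was 1.48 ± 0.32 log2 units (adjusted p = 0.000603), a call lost with the offset (-0.62, adjusted p = 0.105).

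Downstream of pyruvate, 13 genes of pyruvate entry into mitochondria were tested. In allogeneic against syngeneic microglia 0 were higher and 1 lower. At an unadjusted p under 0.05, 2 were higher and 3 lower, and DESeq2 and limma-voom each gave 1 and 1. Library totals alone gave 4 lower, adding Pdhb, Pdhx and Pdk1, the offset for GC content and length gave 3 lower, adding Pdhb and Pdhx, and without syngeneic 1 Dld was higher (0.44, adjusted p = 0.0146). Pdk2, a kinase that inhibits pyruvate dehydrogenase, was the lower gene, with 4.46 to 4.78 CPM in allogeneic, 7.17 to 12.4 in syngeneic and 16.1 to 22.7 in control libraries. It fell by 1.23 ± 0.22 log2 units in allogeneic against syngeneic (SE, adjusted p = 0.000629) and fell by 2.01 ± 0.23 log2 units in allogeneic against control microglia (adjusted p = 5.27e-07), or by 1.39 with the offset. In syngeneic against control microglia 6 of the 13 were higher and 2 lower, where 52.1% of all tested genes were called. Mpc1, a subunit of the mitochondrial pyruvate carrier, rose by 1.27 ± 0.13 log2 units (adjusted p = 1.64e-07), Pdha1, a subunit of pyruvate dehydrogenase, by 1.37 ± 0.16 log2 units (adjusted p = 8.16e-07), and Dld, its dihydrolipoamide dehydrogenase, by 1.18 ± 0.12 log2 units (adjusted p = 1.54e-07).

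The pentose phosphate pathway, which branches off after hexokinase, had 3 of 7 tested genes higher and 0 lower in allogeneic against syngeneic microglia. At an unadjusted p under 0.05 the counts were 5 and 0, and DESeq2 and limma-voom each gave 3 and 0. With the offset 1 was higher, and with library totals alone 0. Without allogeneic 1 or 2, or without any one of the syngeneic libraries, 1 was higher, since Rpe (adjusted p 0.0608 to 0.118) and Tkt (adjusted p 0.06 to 0.0911) were both lost. Taldo1, the transaldolase, rose by 0.29 ± 0.07 log2 units (SE, adjusted p = 0.00666), against 0.09 with the offset (adjusted p = 0.369) and 0.08 with library totals (adjusted p = 0.378). The citric acid cycle had 2 of 16 tested genes higher and 0 lower in allogeneic against syngeneic microglia, and 9 higher and 0 lower in syngeneic against control microglia. At an unadjusted p under 0.05 these were again 2 and 0 and 9 and 0, DESeq2 and limma-voom gave the same counts, and library totals alone gave 2 and 3 and 7 and 3. The offset for GC content and length gave 1 and 1 in allogeneic against syngeneic microglia, and 1 was lower in syngeneic against control microglia with it or without control 2. Sdhb, a subunit of succinate dehydrogenase, rose by 0.48 ± 0.08 log2 units in allogeneic against syngeneic (SE, adjusted p = 0.000149) and by 0.73 ± 0.08 log2 units in syngeneic against control microglia (adjusted p = 3.29e-07). Idh3a, a subunit of isocitrate dehydrogenase, rose by 1.33 ± 0.10 log2 units in syngeneic against control microglia (adjusted p = 6.24e-09).

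Hypoxia-inducible factors, genes that regulate them, such as Vhl, and their targets outside glycolysis were together 17 tested genes. The counts and medians of this list do not separate factors, regulators and targets. In allogeneic against syngeneic microglia 0 were higher and 0 lower, with a median log2 fold change of -0.04. At an unadjusted p under 0.05, 0 were higher and 1 lower, and DESeq2 and limma-voom each called 0. With library totals alone Bnip3l (-0.27, adjusted p = 0.014) and Mxi1 (-0.66, adjusted p = 0.0291) were lower, and Mxi1 was also lower without allogeneic 1 (-0.68, adjusted p = 0.0225). In syngeneic and in allogeneic against control microglia 5 were higher and 6 lower, with medians of 0.13 and -0.07, and library totals alone left 3 higher in the second. Of all tested genes, 52.1% and 57.3% were called in the same comparisons. Hif1a averaged 113 ± 6.52 CPM in allogeneic, 105 ± 7.28 in syngeneic and 46.7 ± 6.92 in control libraries (SD, n = 4), with the first 2 groups overlapping and both above the third. It rose by 1.27 ± 0.11 log2 units in allogeneic (SE, adjusted p = 1.12e-08) and by 1.17 ± 0.11 log2 units in syngeneic against control microglia (adjusted p = 5.51e-08). Vhl, which marks the Hif1a protein for degradation, fell by 0.96 ± 0.11 log2 units in allogeneic (adjusted p = 7.88e-07) and by 0.99 ± 0.11 log2 units in syngeneic against control microglia (adjusted p = 7.3e-07). Bnip3, a mitophagy receptor, rose by 1.05 ± 0.13 log2 units in allogeneic (adjusted p = 1.57e-06) and by 0.99 ± 0.13 log2 units in syngeneic against control microglia (adjusted p = 4.22e-06), and the first value was 0.33 with the offset (adjusted p = 0.0433).

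**Figure D5:**
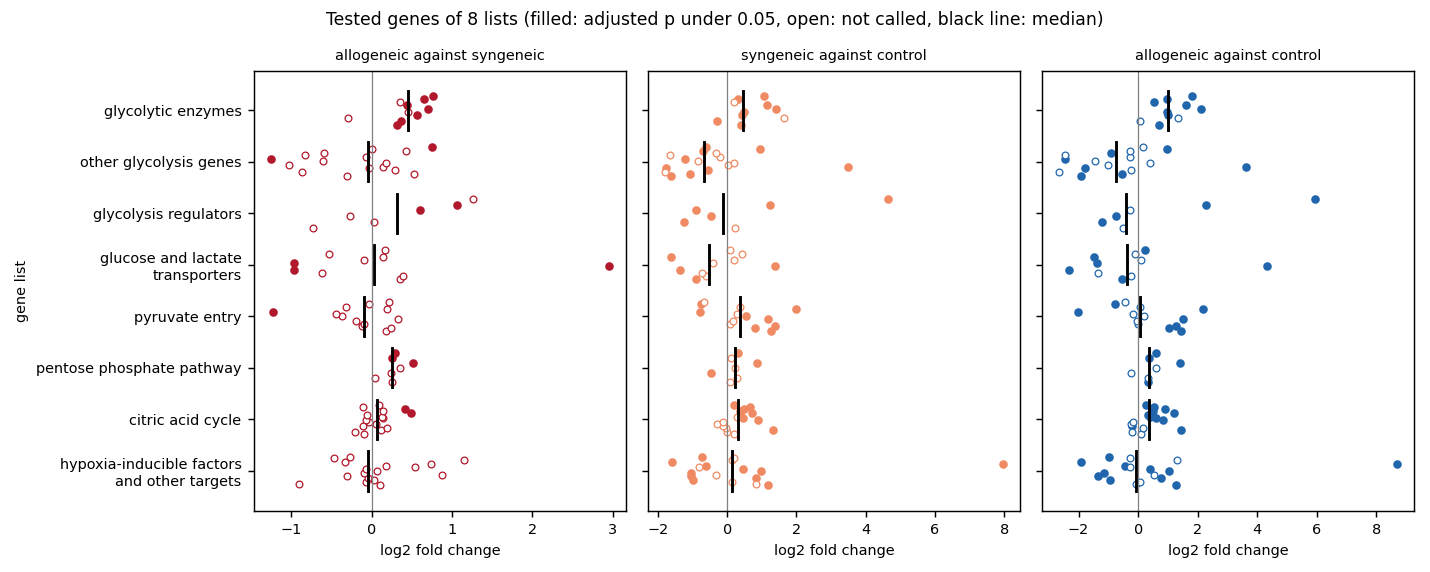
Log2 fold change (x axis) of each tested gene of the enzyme list and of the related lists (y axis) for allogeneic against syngeneic (left panel), syngeneic against control (middle) and allogeneic against control microglia (right); filled points have an adjusted p under 0.05 and black lines are medians. The enzyme list has the highest median of these lists in each panel, at 0.45, 0.46 and 0.98. The lists were chosen with earlier results of these data known, so this order is no test. In the middle and right panels the point farthest to the right in the hypoxia row is a gene with 0 counts in control libraries. Its fitted value there is no bound.

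The genes outside the list whose pattern over the 12 libraries was most like the mean pattern of the 10 were Pcbp2, Mif, Sepw1, Cd9 and Ifih1. Likeness was the root mean square distance between z-scored log2 CPM, over 8933 genes with a median distance of 1.39. These distances were 0.19 for Pcbp2 and Mif, 0.21 for Sepw1 and 0.23 for Cd9 and Ifih1. Of the members, Aldoa and Ldha were at 0.19, Gapdh at 0.28, Pkm at 0.30, Tpi1 at 0.32, Pgk1 at 0.33, Hk2 at 0.39, Pgam1 at 0.50, Pfkp at 0.94 and Gpi1 at 1.14. The mean pattern was made from these members, so their own closeness is in part built in. Of the 8933 genes, 1 was closer than Aldoa and 1 closer than Ldha. Closer than Gapdh were 53, than Pkm 86, than Tpi1 129, than Pgk1 144 and than Hk2 455. Closer than Pgam1 were 960, than Pfkp 2927 and than Gpi1 3609. Mif, which encodes a cytokine, averaged 131 ± 30.9 CPM in allogeneic, 69.2 ± 9.10 in syngeneic and 41.6 ± 6.66 in control libraries (SD, n = 4). Ifih1, which encodes the RNA sensor MDA5, averaged 163 ± 31.4, 54.7 ± 6.33 and 22.6 ± 2.68 CPM in the same groups.

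Markers of the sorted cells and of other cells are given as sums over each list. The summed level of 10 microglia markers was 35670 to 36940 CPM in allogeneic, 51010 to 54160 in syngeneic and 53900 to 62010 in control libraries, with none at 0. Of these 10 genes, 0 were higher and 8 lower in allogeneic against syngeneic microglia. Against control microglia 5 were higher and 4 lower in syngeneic and 2 higher and 8 lower in allogeneic microglia, so the members went opposite ways. For 9 monocyte markers the summed level was 293 to 463 CPM in allogeneic, 39.1 to 73.9 in syngeneic, with Vcan and Chil3 at 0, and 19.9 to 26.1 in control libraries. Of the 7 tested, 3 were higher and 0 lower in allogeneic against syngeneic microglia, where 16.5% of all tested genes were called. Against control microglia 3 were higher and 0 lower in syngeneic (52.1% of all called) and 4 higher and 1 lower in allogeneic microglia (57.3% of all called). Markers of border-associated macrophages, 6 in number, summed to 38.8 to 52.8 CPM in allogeneic, 24.1 to 34.3 in syngeneic and 1.82 to 5.13 in control libraries, with Lyve1 at 0 in the allogeneic and control groups. Choroid plexus markers, 7 in number, summed to 411 to 779 CPM in allogeneic, 1411 to 2452 in syngeneic and 21.2 to 143 in control libraries. T cell markers, 7 in the table, summed to at most 3.37 CPM in any library. Cd28 was at 0 in the allogeneic group, Cd3e, Cd3g, Cd4, Cd8a and Cd28 in the syngeneic group, and Cd3e, Cd3d and Cd3g in the control group. The part of these cells in the enzyme results was not tested.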

How the data were processed

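Total RNA came from microglia sorted from the brains of 4 allogeneic, 4 syngeneic and 4 control mice, and samples with an RNA integrity value of at least 8 were sequenced, per the labels' protocols. The submitters' processing notes name Trimmomatic 0.36, STAR 2.5.2b and the mouse build mm9. The deposited file is 1 table of raw read counts per gene symbol, made by the authors. Not given in the sources used here were the counting tool, annotation, strand setting, handling of shared reads and any batch.

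These counts gave CPM and log2 fold changes through edgeR 4.0.16 under R 4.3.3 (TMM, filterByExpr with a minimum count of 10, 12695 of 18018 genes with any count kept, 1 robust quasi-likelihood fit of all 12 libraries, Benjamini-Hochberg adjustment over all tested genes, calls at an adjusted p under 0.05). Exact permutation tests compared isoenzyme ratios, with 0.5 added to each count. Alternatives were other size factors, other filters, DESeq2 1.42.0, limma 3.58.1 (voom), the compared groups alone, a replicate block, an offset by loess (span 0.3) on GC content and on length, and each library left out. Lengths and GC content come from GENCODE M21 and promoters from RefSeq (GRCm38.p6), with 23298 symbols matched directly, 669 through a synonym and 361 unmatched. Replicates of a group had Spearman correlations of 0.975 to 0.984, and none were duplicates. The model was tested on simulated data.

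The members, the gene lists and the motifs were chosen with earlier results of these data known. Named genes are the 10 members, tested genes of the lists of other glycolysis genes and regulators, up to 3 genes of each other list with the smallest p in a comparison, and the 5 genes most alike in pattern; Eno1b was added after its values were seen. A gene of the marker lists is not reported here and is in none of the marker sums.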

Additional observations from a re-analysis of the deposited data

Results flagged for a closer look

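Among the 45 sets of 4 libraries checked (the 10 enzyme genes and 5 isoenzyme ratios in 3 groups), 4 had a library standing apart by Dixon's criterion, where chance gives about 1 in 20. Tpi1 was 202.9 CPM in allogeneic 3, against 126.5 to 133.8 CPM in the other allogeneic libraries. The log2 ratio of Hk2 to Hk1 was 4.855 in allogeneic 4, against 5.27 to 5.325 in the other allogeneic libraries. Gapdh was 601.4 CPM in syngeneic 2, against 548.5 to 554.5 CPM in the other syngeneic libraries. Gapdh was 192.6 CPM in control 2, against 215.6 to 219.7 CPM in the other control libraries.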

How the results depend on the processing

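The log2 fold changes of the 10 enzyme genes in 3 comparisons were recomputed under 21 alternatives, 630 values in all, of which 581 kept their direction and their side of the threshold, 37 were no longer past it, 7 passed it anew and 5 reversed. With library totals alone, 4 enzyme genes were called in allogeneic against syngeneic microglia instead of 7. Leaving out each library in turn gave 5 to 7 called enzyme genes in allogeneic against syngeneic, 5 to 8 in syngeneic against control and 8 to 9 in allogeneic against control microglia, the lowest count of the second without syngeneic 2. Isoenzyme ratios past the threshold numbered 0 to 10 when each library was left out, with 10 without control 3. This number turns on how many tests reach the smallest possible exact permutation p, since those pass or fail together. The reversed fold changes were Gpi1 in allogeneic against control microglia, at -0.31 with library totals (the median of all genes was then -0.44, and relative to it Gpi1 was at 0.13, as with TMM), -0.0005 without control 4 and -0.013 without allogeneic 3 (-0.013 to 0.16 when each library was left out), Gpi1 in syngeneic against control, at 0.20 with the GC and length offset, and Pfkp in allogeneic against syngeneic, at 0.068 without syngeneic 1 (-0.58 to 0.068). The ratio of Hk2 to Hk3 in allogeneic against syngeneic microglia reversed to 0.018 without syngeneic 2 (-0.39 to 0.018). The cause of these reversals was not tested. The replicate numbers are shared between groups, but over all genes same-numbered libraries did not deviate together (correlations -0.015 to 0.0317). These correlations cannot tell whether same-numbered mice were handled together, and the main fit used no pairing. With a replicate block, 2002 genes were called in allogeneic against syngeneic microglia (2098 without it), 6507 (6610) in syngeneic against control and 7200 (7273) in allogeneic against control microglia. Of the enzyme genes 5, 7 and 8 were called, with Gpi1 and Pgk1 lost in the first comparison (adjusted p = 0.0652 and 0.0574) and Gpi1 in the second (adjusted p = 0.0537). Among the other listed genes the block lost Tkt in the first comparison (adjusted p = 0.0531) and Adpgk and Mdh2 in the second (adjusted p = 0.0539 and 0.0569), and added Hk3 in the first (adjusted p = 0.0496) and Ldhb in the third (adjusted p = 0.0279). Every enzyme gene but Pfkp had at least 5590 counts per group, so the number of mice limits the precision, and for Pfkp also its 255 to 724 counts per group.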
